A study of Mus musculus with 10 samples.

Results

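The 9 haematopoietic transcription factors Spi1, Irf8, Ikzf1, Lmo2, Tal1, Fli1, Runx1, Myb and Gfi1 were followed through 10 RNA-seq libraries of cells cultured out of the left atrial appendage of C57BL/6 mice aged 8 to 12 weeks. The members were a named list, found by gene symbol among the 36172 genes of the deposited table. Of the 9, 8 stood under their own symbol, and Spi1 was found under its older symbol Sfpi1 by its Entrez identifier. There were 5 cell types with 2 libraries each. B cells were primary cells grown out after weak digestion of the tissue with 0.05% trypsin, sorted positive for c-kit, a receptor of many stem and progenitor cells, and positive for CD45, a phosphatase on the surface of blood cells. C1, C2 and C3 were grown on from B-type cells. The C1 cells, of passage 6, were c-kit positive but CD45 negative. The C2 cells of passage 8 and the C3 cells of passage 10 lacked both proteins. A cells were primary cells grown out after strong digestion with 0.25% trypsin, sorted c-kit positive and CD45 negative. Collagenase D at 0.1% was used in both digestions of the primary cells. No gene was altered and no agent was given as a treatment. Since no label ties the 2 libraries of a type to separate animals or cultures, the p-values reflect only how far these samples spread, which may be technical.

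Blood cells arise from progenitors whose fate is set by a small number of transcription factors that act together and on each other. Runx1 is needed for the first definitive blood stem cells to form from endothelium, Tal1 and Lmo2 sit together in the same DNA-binding complex at the start of blood and vessel development, and Fli1 works in both lineages. PU.1, the product of Spi1, drives macrophage and B-cell fate and binds DNA together with IRF8, which directs monocytes and macrophages. Ikaros, encoded by Ikzf1, shapes lymphoid development, Myb keeps progenitors dividing, and Gfi1 is a repressor of stem cells and granulocytes.

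The deposited values were log2 values with the median of each gene over the 10 libraries taken away. They were read as the log2 of normalized reads, that is, read counts divided by a library factor, with values under 1 raised to a floor of 1. For genes with at least 2 libraries at a shared lowest value this gives the level back, and for the others only differences between libraries are known. Of the members, 7 have a known level, while Fli1 and Runx1 do not. Relative depth, read from the spacing of low values, was 0.436 and 0.552 in the B libraries, 0.992 and 1.50 in those of C1, 0.490 and 0.966 in C2, 3.86 and 5.03 in C3, and 0.595 and 0.522 in A, so low levels were resolved best in C3. The limit of 3 reads, under which a library cannot show a gene apart from a count of 0, lay at 5.43 to 6.88 normalized reads in B, 2.00 to 3.02 in C1, 3.11 to 6.12 in C2, at the floor of 1 in C3, and at 5.04 to 5.75 in A. Intervals and limits cover counting error only. In total 14254 genes were tested. Differences written with ± are log2 values, computed as the first-named type minus the second, and follow with the limma standard error for 2 libraries per type. This error rests on 1 spread per gene shared by all 10 libraries, so a gap between the A libraries widens it in every comparison. The words rose and fell are used of genes with an adjusted p under 0.05 and a log2 difference of 1 or more in either direction.

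The A libraries differed from each other in the genes of the sort, and the types differed in sex-linked genes. Ptprc, which encodes CD45, had 2823 and 2723 normalized reads in B, was at or next to the floor in the 6 C libraries, and had 6.72 in A replicate 1 but 82.1 in A replicate 2. Kit, which encodes c-kit, had 22.9 and 12.7 normalized reads in B, 35.3 and 66.4 in C1, no more than 3.11 in C2 and C3, and 3.36 in A replicate 1 against 72.3 in A replicate 2. The root mean square log2 difference between the 2 libraries of a type over all tested genes was 1.06 in A, and between 0.43 and 0.52 in the other types. Ddx3y, on the Y chromosome, had 555 and 414 normalized reads in the B libraries, 1344 and 1247 in those of C1 and 57.2 and 86.2 in those of C2, lay at the floor in both C3 libraries, and had 618 and 353 in A, although the 3 cultures are labelled as grown from B-type cells. Xist, the RNA of the silenced X chromosome, lay 4.93 and 4.74 above its median on the log2 scale in B and had -4.82 and -5.24 on that scale for C1, -5.80 and -4.61 for C2, -0.17 and 0.17 for C3, and 1.09 and 4.12 for A. Xist thus separated B from the cultures and the A libraries from each other. Ddx3y separated the cultures from one another, with B between C1 and C2. The part of this in the results was not tested. Differences from A are therefore given with and without each A library for the factors, and for other named genes where a library left out ended the call or moved the value by over 1.5 times.

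Of the 9 factors, Spi1, Lmo2, Irf8 and Ikzf1 were abundant in B and at or near the floor in every culture. Tal1 followed the same order at a much lower level, and Fli1 was highest in B but differed by far less between types. Runx1 stayed within a narrow range, and Myb and Gfi1 were hardly detected anywhere. In bulk samples fewer cells of a type and less RNA per cell cannot be told apart, here and in all that follows.

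**Figure D1:**
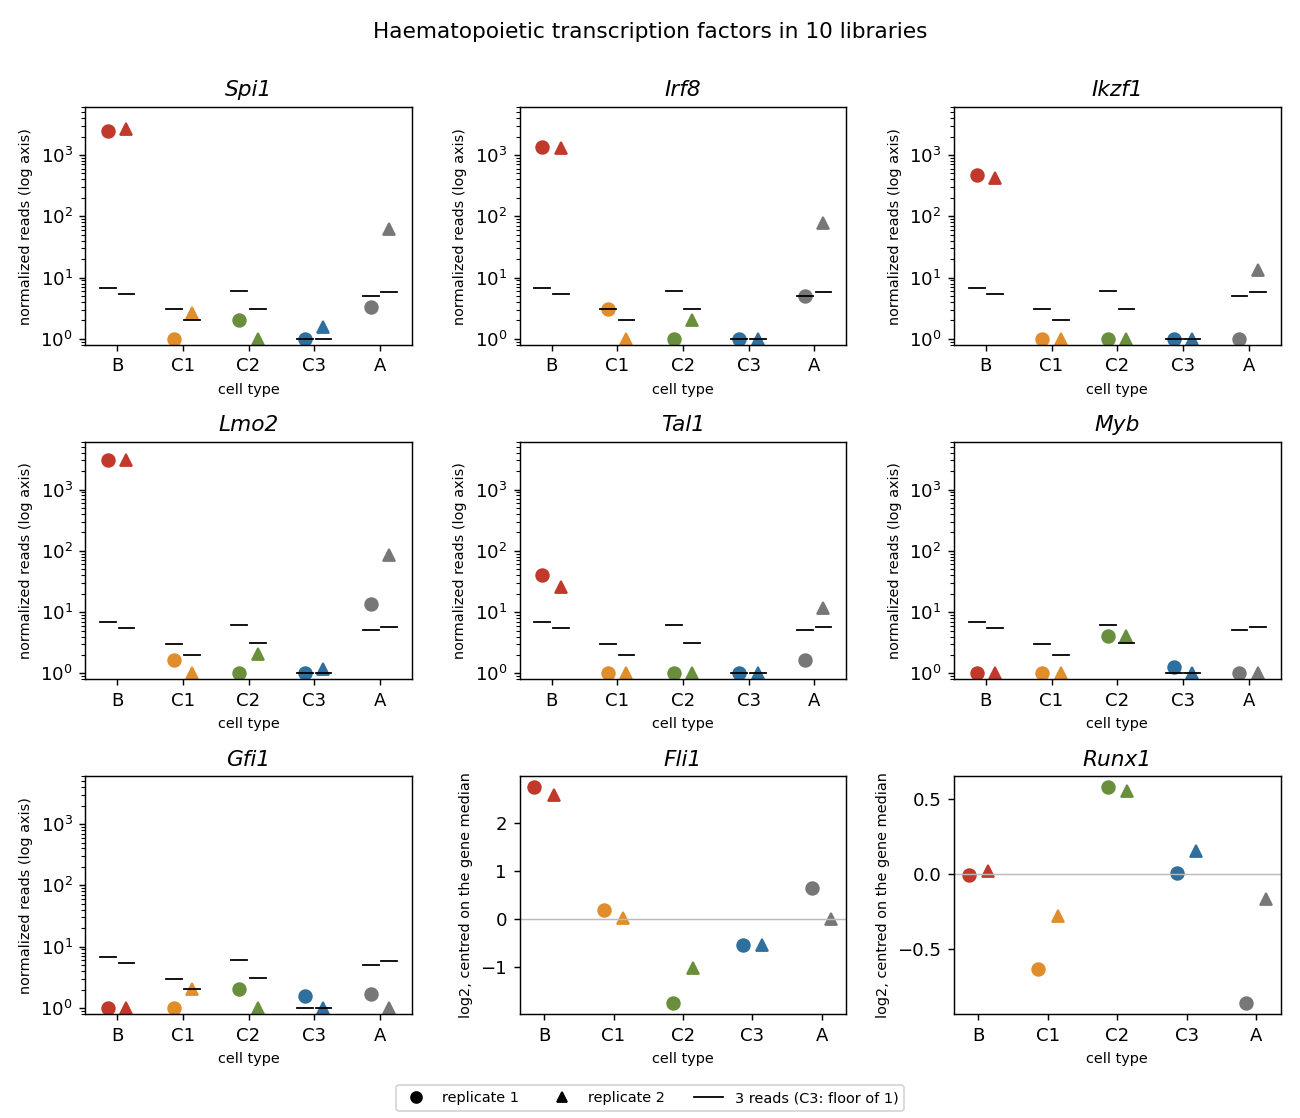
The 9 factors in the 10 libraries by cell type. The first 7 panels give normalized reads on a log axis, with short black lines at 3 reads of each library (the floor of 1 in C3), and the panels for Fli1 and Runx1 give log2 values about the median of the gene. Spi1, Irf8, Ikzf1 and Lmo2 lie at 418 normalized reads or more in both B libraries and at no more than 3.02 in any C library, and A replicate 2 lies above A replicate 1 for each of them.

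Spi1 (chr2:91082390-91115756, plus strand, GRCm38) encodes PU.1, an ETS-family activator of macrophage genes. It had 2488 and 2670 normalized reads in the B libraries. In culture it had 1.01 and 2.67 in C1, 2.04 and the floor of 1 in C2, and the floor and 1.59 in C3, which correspond to between 1 and 8 reads where it was above the floor. The A libraries had 3.36 and 62.9, or 2 and 33 reads. Every B library thus lay above every other library, and A replicate 2 lay above all 6 C libraries.

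The level of Spi1 in B exceeded that in A by 7.47 ± 1.25 (adjusted p = 0.00355), with 5.36 when A replicate 1 was left out and 9.58 when A replicate 2 was left out. It fell in C1 relative to B (limma adjusted p = 0.000571). From the 5 reads of C1 the ratio of B over C1 was 1284, with a 95% Poisson interval of 550 to 3955. Its order by mean was B, then A, then C1, C2 and C3. A replicate 1 lay under its limit of 3 reads, and the neighbours C1 and C2, and C2 and C3, overlapped in their libraries.

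Irf8 (chr8:120736358-120756694, plus strand) encodes a partner of PU.1 on composite DNA sites. It had 1329 and 1324 normalized reads in B. In C1 it had 3.02 and the floor, in C2 the floor and 2.07, and in C3, the deepest libraries of the series, both were at the floor. The A libraries had 5.04 and 76.5, from 3 and 40 reads. Irf8 was higher in B than in A by 6.08 ± 1.18 (adjusted p = 0.00650), by 4.12 without A replicate 1 and by 8.04 without A replicate 2. The fall in C1 relative to B passed the test as well (limma adjusted p = 0.000692), and with 3 to 4 reads in C1 the ratio of B over C1 lay between 826 and 1101, with counting bounds of 322 and 5338.

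Ikzf1 (chr11:11685003-11772926, plus strand), which encodes the zinc-finger protein Ikaros, had 465 and 418 normalized reads in B, and all 6 C libraries were at the floor. A replicate 1 was also at the floor, and A replicate 2 had 13.4, or 7 reads. The difference of B and A was 6.91 ± 1.01 (adjusted p = 0.00211), with 5.04 and 8.78 when A replicate 1 or A replicate 2 was left out. Relative to B, Ikzf1 was at least 138-fold lower in C1 and 68.3-fold lower in C2, set by the limit of 3 reads per library. In C3 the floor can hide up to 8 reads, and the ratio of B over C3 had a lower 95% Poisson bound of 249. The fall in C1 relative to B had an adjusted p of 0.000531.

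Lmo2 (chr2:103957986-103981878, plus strand) encodes a LIM-domain protein that binds no DNA itself and bridges Tal1 to other factors. It was the factor with the most reads in B, at 3049 and 2980, which compares reads and not transcripts per length. C1 had 1.66 and the floor, C2 the floor and 2.07, and C3 the floor and 1.19. The A libraries had 13.3 and 86.1, both above their limits. B was higher than A by 6.48 ± 0.81 (adjusted p = 0.00115), by 5.13 without A replicate 1 and by 7.82 without A replicate 2. Lmo2 fell in C1 relative to B (limma adjusted p = 7.96e-05). With 2 to 3 reads in C1 the ratio of B over C1 lay between 2502 and 3753, with counting bounds of 856 and 30990.

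Tal1 (chr4:115056426-115071755, plus strand) encodes the basic helix-loop-helix protein that Lmo2 joins to its complex. It had 40.4 and 25.3 normalized reads in B, from about 18 and 14 reads, and all 6 C libraries were at the floor. A replicate 1 had 1.68, a single read, and A replicate 2 had 11.5. Both B libraries lay above both A libraries, and the difference was 2.86 ± 0.77 (adjusted p = 0.0243), with 1.48 without A replicate 1 and 4.25 without A replicate 2. The call was lost without B replicate 1 (adjusted p = 0.122) or B replicate 2 (adjusted p = 0.0670). Relative to B, Tal1 was at least 8.38-fold lower in C1 and 4.14-fold lower in C2, set by the limit of 3 reads per library. In C3 the floor can hide up to 8 reads, and the ratio of B over C3 had a lower 95% Poisson bound of 18.5. These bounds take the few B reads as exact. The fall in C1 had a limma adjusted p of 0.00183. Although Tal1 and Lmo2 act in 1 complex, the levels in B were 32.9 ± 10.6 normalized reads for Tal1 and 3015 ± 49 for Lmo2 (SD, n = 2 each), a comparison of reads without correction for length.

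Across B and A, 6 of the 7 factors tested rose in B and 0 fell, where 14.5% of all tested genes rose and 26.9% changed in either direction. Spi1, Irf8, Ikzf1 and Tal1 reached 10 normalized reads only in B and A replicate 2. They thus passed the filter only through B, where they are high. Of the 14254 tested genes, 13059 could not be filtered. This count and that of C1 against B below are therefore not on the same footing as the shares over all genes. Under quantile normalization the calls of Spi1 (3.29, adjusted p = 0.0586), Irf8 (2.03, adjusted p = 0.181), Lmo2 (2.06, adjusted p = 0.0597) and Tal1 (0.72, adjusted p = 0.385) were lost, and over all tested genes 1484 rose and 1714 fell, where the fit reported here had 2066 and 1769. When only the 4 libraries of B and A were fitted, Spi1 (adjusted p = 0.0600), Irf8 (adjusted p = 0.0744), Ikzf1 (adjusted p = 0.0561) and Tal1 (adjusted p = 0.158) were lost. In C1 relative to B, 6 of 7 factors fell and 0 rose, where 21.1% of all tested genes fell and 33.7% changed in either direction. These 6 calls held under every alternative run, while over all tested genes quantile normalization gave 2290 higher and 2240 lower in C1, where the fit reported here gave 1799 and 3005. Markers of other cells fell in the same comparison. Of the 11 endothelial markers tested 9 fell and 1 rose, with a median difference of -4.19, or -3.47 with genes under the limit set at their bound, and of the 8 stem and progenitor markers tested 6 fell and 0 rose, with a median of -3.74. The summed normalized reads of the 9 endothelial markers with a known level were 9.02 and 9 in C1, against 364 and 345 in B, and 7 of these 9 were at the floor in both C1 libraries. Their part in the fall of Tal1, Lmo2 and Fli1, which also serve vessels, was not tested.

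The DNA just before the transcription start is shown for 3 of the factors that fell together in C1, Irf8, Ikzf1 and Tal1, and for Runx1, which did not pass the test in that comparison. Each window holds the 250 bases before a RefSeq transcript start on GRCm38.p6, 5′ to 3′ on the strand of the gene, and capitals mark a match to a motif searched. Of the 11 windows held for members of the list, 1 is shown for each of these factors. For Tal1 and Runx1 it is the window that holds a match. The Irf8 window is chr8:120736108-120736357 on the plus strand, the Ikzf1 window chr11:11685675-11685924 on the plus strand, the Tal1 window chr4:115056176-115056425 on the plus strand, and the Runx1 window chr16:92697330-92697579 on the minus strand. The Ikzf1 and Runx1 windows lie inside the gene as GENCODE draws it, before a start further down. The bases just after the start of the Runx1 window were not found in the GENCODE transcripts of Runx1. For the Irf8, Ikzf1 and Tal1 windows shown, and for the other Runx1 window, such bases were found.
Irf8: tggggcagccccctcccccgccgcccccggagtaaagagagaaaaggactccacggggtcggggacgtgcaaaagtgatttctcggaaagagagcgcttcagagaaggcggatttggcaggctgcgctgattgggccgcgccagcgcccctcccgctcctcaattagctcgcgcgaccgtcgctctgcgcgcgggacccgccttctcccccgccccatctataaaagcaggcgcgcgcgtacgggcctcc
Ikzf1: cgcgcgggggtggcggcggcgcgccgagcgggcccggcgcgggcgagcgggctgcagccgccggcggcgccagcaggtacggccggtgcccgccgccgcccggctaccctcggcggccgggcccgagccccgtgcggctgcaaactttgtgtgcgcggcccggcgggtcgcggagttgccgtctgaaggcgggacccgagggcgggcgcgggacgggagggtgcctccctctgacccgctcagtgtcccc
Tal1: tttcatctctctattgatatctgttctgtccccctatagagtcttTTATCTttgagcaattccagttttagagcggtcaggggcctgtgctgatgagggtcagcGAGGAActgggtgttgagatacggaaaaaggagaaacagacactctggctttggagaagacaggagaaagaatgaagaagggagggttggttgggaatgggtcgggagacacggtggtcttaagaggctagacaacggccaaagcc
Runx1: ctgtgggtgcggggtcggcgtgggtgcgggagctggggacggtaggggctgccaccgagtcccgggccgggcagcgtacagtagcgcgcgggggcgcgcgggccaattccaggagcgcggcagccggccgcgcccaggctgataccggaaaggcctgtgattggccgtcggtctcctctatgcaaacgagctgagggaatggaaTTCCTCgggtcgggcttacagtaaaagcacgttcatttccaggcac
The motifs searched on both strands were GAGGAA, the core bound by PU.1, TGTGGT for Runx factors, GGAA and GAAA at a distance of 2 bases for PU.1 with an IRF, a pair of GAAA at the same distance for IRF factors, and AGATAA for GATA factors, the usual companions of Tal1 and Lmo2. The Tal1 window holds GAGGAA on its own strand, 146 bases before the start, and AGATAA on the opposite strand, 205 bases before the start. The Runx1 window holds GAGGAA on the opposite strand, 46 bases before the start. The Irf8 and Ikzf1 windows shown, and the other windows of Runx1 and Tal1, hold none of these letters. Among the 32851 RefSeq windows of this length, 23.3% hold GAGGAA, 14.1% TGTGGT, 2.30% the element of PU.1 with an IRF, 2.98% the IRF pair and 9.99% AGATAA. The table held windows for 6 of the 9 factors. Of their 11 windows, 2 hold GAGGAA, or 18.2%, and 1 holds AGATAA, or 9.09%, so neither share exceeds that of all windows. These matches are letters in a window and not sites of binding.

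Fli1 (chr9:32422204-32542861, minus strand) encodes an ETS factor of blood and endothelial cells. Its level is unknown, and its log2 values about the median of the gene were 2.74 and 2.58 in the B libraries, 0.18 and 0.01 in C1, -1.76 and -1.03 in C2, -0.54 in both C3 libraries, and 0.64 and -0.01 in A. Both B libraries lay above all others, and both C2 libraries lay below all others. Fli1 was higher in B than in A by 2.34 ± 0.29 (adjusted p = 0.00115), a 5.07-fold difference, and by 2.67 without A replicate 1 and 2.01 without A replicate 2. In C1 relative to B it fell by 2.56 ± 0.29 on the log2 scale (adjusted p = 0.000515), or 5.91-fold.

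In C2 relative to C1, Fli1 again fell by 1.49 ± 0.29 on the log2 scale (adjusted p = 0.00883), or 2.80-fold. That call was lost without C1 replicate 1 (-1.40, adjusted p = 0.0523). C3 lay above C2 by 0.85 ± 0.29, which missed the threshold (adjusted p = 0.0516), with a 95% interval of 0.16 to 1.54, and was called without C2 replicate 2 (1.22, adjusted p = 0.0242) and under quantile normalization (1.44, adjusted p = 0.0116). The order of Fli1 was B, A, C1, C3 and C2. In that order B and A differed beyond their spread, while A and C1 overlapped and the steps between C1 and C3 and between C3 and C2 did not pass the test.

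Runx1 (chr16:92601466-92826149, minus strand) encodes the DNA-binding partner of CBFβ. Its log2 values about the median of the gene were -0.01 and 0.02 in the B libraries, -0.63 and -0.28 in C1, 0.58 and 0.55 in C2, 0.01 and 0.15 in C3, and -0.86 and -0.17 in A. The C2 libraries were the highest and the C1 and A libraries the lowest, and the whole range from A replicate 1 to C2 replicate 1 was smaller than the gap of Fli1 between B and A. The difference of B and A was 0.52 ± 0.24 (adjusted p = 0.129, 95% interval -0.05 to 1.09), with 0.17 without A replicate 1 and 0.87 without A replicate 2. C1 and B differed by -0.46 ± 0.24 (adjusted p = 0.149, 95% interval -1.03 to 0.11), which neither shows a change nor shows that the types were alike.

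Runx1 rose in C2 relative to C1 by 1.02 ± 0.24 (adjusted p = 0.0170), 2.03-fold, close to the minimum difference for a call. It lost the call without C1 replicate 1 (0.85, adjusted p = 0.0952), C2 replicate 1 (1.01, adjusted p = 0.0765) or C2 replicate 2 (1.03, adjusted p = 0.0647). C3 stood between the other cultures, at -0.49 ± 0.24 relative to C2 (adjusted p = 0.144) and 0.54 ± 0.24 relative to C1 (adjusted p = 0.101). The order was C2, C3, B, C1 and A. The libraries of C3 and B overlapped, as did those of C1 and A, and the steps from C3 to C2 and from C1 to B did not pass the test. The antisense gene Gm26626 shares exon bases with Runx1, and because the kit does not mark strand, reads of the pair cannot be told apart.

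**Figure D2:**
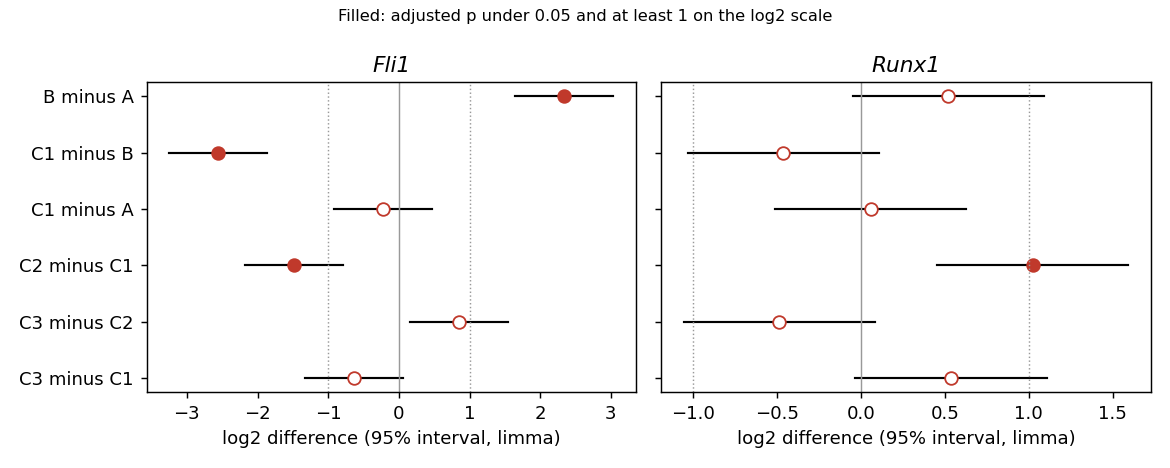
Log2 differences of Fli1 and Runx1 in 6 comparisons of cell types, each as labelled on the axis, with 95% intervals from limma over 2 libraries per type. Filled points passed the adjusted p of 0.05 and the minimum difference of 1, which the dotted lines mark. Fli1 passed in 3 comparisons, at 2.34, -2.56 and -1.49, and Runx1 in the comparison of C2 and C1 at 1.02.

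Myb and Gfi1 did not reach the filter of 10 normalized reads in 2 libraries and have no place in the tests. Myb (chr10:21124935-21160984, minus strand) was at the floor in both B, both C1 and both A libraries and in C3 replicate 2. It had 4.08 normalized reads in each C2 library, from about 2 and 4 reads, and 1.30 in C3 replicate 1. With the limit of 3 reads at 6.12 in C2 replicate 1 and 3.11 in C2 replicate 2, only the second of these lies above its limit. A fit without the filter called it higher in C2 than in C1 (2.03 ± 0.14, adjusted p = 0.000378) and lower in C3 than in C2 (-1.84 ± 0.14, adjusted p = 0.000344), on 2 to 4 reads per C2 library.

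Gfi1 (chr5:107716657-107726036, minus strand) was at the floor in both B libraries. It had 1.01 and 2.00 normalized reads in C1, 2.04 and the floor in C2, 1.55 and the floor in C3, and 1.68 and the floor in A, so no library held more than 6 reads. No comparison called it without the filter. Gm26577, antisense to Myb, and A430072P03Rik, on the strand opposite to Gfi1, share exon bases with them, and their reads cannot be told apart.

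In each of the 7 tested factors the A libraries differed by more than the B libraries did, and the direction was not the same for all. As a percent of the B mean, A replicate 2 had 2.44% of Spi1, 5.77% of Irf8, 3.04% of Ikzf1, 2.86% of Lmo2 and 35.9% of Tal1. A replicate 1 had 0.442% of Lmo2, the 1 factor of these 5 that stood above its limit of 3 reads there, and that limit corresponds to 0.196% of Spi1, 0.380% of Irf8, 1.14% of Ikzf1 and 15.8% of Tal1. By reads, A replicate 2 over A replicate 1 gave a ratio of 6.41 for Lmo2, with an exact 95% binomial interval of 2.99 to 15.8. On 2 reads in replicate 1 the ratio was 18.8 for Spi1, with bounds of 4.81 and 162, on 3 reads 15.2 for Irf8, with bounds of 4.84 and 76.8, and on 1 read 6.84 for Tal1, with bounds of 0.830 and 315. For Ikzf1, with 0 reads in replicate 1 and 7 in replicate 2, the ratio had only a lower bound, of 1.64. Fli1 went the other way, at 24.8% in A replicate 1 and 15.7% in A replicate 2. Runx1 had 54.8% and 88.7%.

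The same 2 libraries differed in markers of blood cells. The median over the 20 macrophage markers was 0.165% of B in A replicate 1 and 2.25% in A replicate 2, and 19 of 20 were higher in replicate 2. For the 14 pan-leukocyte markers it was 0.220% and 2.77%, with 12 of 14 higher in replicate 2. Values of A replicate 1 at the floor enter these medians as they stand. The summed normalized reads of the 7 macrophage markers with a known level were 26310 and 25350 in B, 9.01 to 10.1 in C1, 9.18 to 10.1 in C2, 13.1 to 13.6 in C3, and 33.3 and 445 in A. Of these 7, 2 were at the floor in both C1 libraries, 4 in C2 and 5 in C3. The 11 endothelial markers tested had medians of 69.2% and 147% of B in the A libraries, and the 12 fibroblast markers 474% and 265%. Whether cells bearing these markers account for the levels of the factors in A was not tested.

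**Figure D3:**
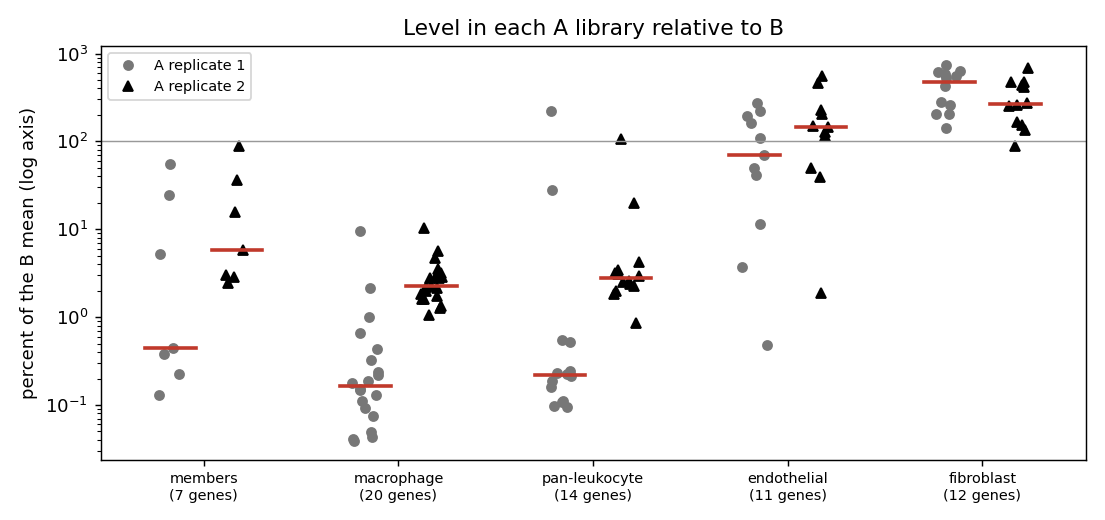
Level in each A library as a percent of the B mean, on a log axis, with 1 point per gene and a red line at the median of each list. Circles are A replicate 1 and triangles A replicate 2. Macrophage markers have medians of 0.165% and 2.25%, and most members of that list and of the pan-leukocyte list lie higher in replicate 2, while fibroblast markers lie mostly above 100% in both.

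C1 and A share the label c-kit positive and CD45 negative. Between them, 2 of 7 factors fell in C1 and 0 rose, where 16.6% of all tested genes fell and 26.6% changed in either direction. Lmo2 had 1.66 normalized reads and the floor in C1, against 13.3 and 86.1 in A (limma adjusted p = 0.00407), and the call was lost when only these 4 libraries were fitted (adjusted p = 0.0662). Irf8 had 3.02 and the floor in C1, against 5.04 and 76.5 in A, with an adjusted p of 0.0488, and the alternatives that lost this call gave 0.0527 to 0.215. Spi1 (adjusted p = 0.0796), Tal1 (adjusted p = 0.0616) and Ikzf1 (adjusted p = 0.177), each lower in C1 by its mean, did not pass. A replicate 2 alone had 62.9 normalized reads of Spi1, 13.4 of Ikzf1 and 11.5 of Tal1, the last 2 on 7 and 6 reads. Against these, C1 had at most 2.67 of Spi1, and Ikzf1 and Tal1 were at the floor. In A replicate 1 Spi1, Ikzf1 and Tal1 lay under the limit of 3 reads, so their difference rests on 1 library. Irf8 lay at that limit in A replicate 1, with 3 reads, so its called difference rests on A replicate 2 as well. Quantile normalization gave 2219 genes higher and 2105 lower in C1, where the fit reported here gave 1433 and 2365.

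Along the passages, 1 of 7 factors rose and 1 fell in C2 relative to C1, namely Runx1 and Fli1, where 12.2% of all tested genes rose, 8.18% fell and 20.4% changed in either direction. In C3 relative to C2, limma called 0 of 7 factors, where 27.9% of all tested genes were called, and 1 factor, Fli1, had an unadjusted p under 0.05 (0.0232). For C3 relative to C1 it called 0 of 7, where 34.8% of all tested genes were called, and 0 factors had an unadjusted p under 0.05. The 5 factors at or near the floor in culture could not have shown a fall there, and in C3 a rise to a few normalized reads would have been seen. Quantile normalization gave 1948 higher and 2014 lower in C2 relative to C1, where the fit reported here gave 1740 and 1166, and 2080 higher and 1865 lower in C3 relative to C2, where it gave 1657 and 2315.

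Genes known as targets of PU.1 or IRF8 in macrophages changed in the same direction as Spi1 and Irf8 between B and A and between C1 and B. Of the 25 on the list 24 were tested, and 24 rose in B relative to A, and 24 fell in C1 relative to B, where 14.5% and 21.1% of all tested genes did. In C1 relative to A 4 fell, which is near the 16.6% of all tested genes that fell, and 0 rose. Without A replicate 1 that count was 19 lower and 0 higher, and without A replicate 2 it was 3 lower and 6 higher. The median difference was 6.82 for B and A, against 0.005 over all tested genes, and -8.44 for C1 and B, or -7.81 with genes under the limit set at their bound, against -0.07 over all tested genes. Tyrobp, a signalling adaptor of macrophages, had 8011 and 8337 normalized reads in B, no more than 4.08 in any C library, and 3.36 and 109 in A. Ncf1, a subunit of the phagocyte oxidase, had 2724 and 2791 in B, no more than 2.07 in any C library, and the floor and 84.3 in A. Its difference of B and A was 8.23, with 5.03 without A replicate 1, and the call was lost without B replicate 2 (adjusted p = 0.0508). Blnk, an adaptor of B-cell receptor signalling, had 1383 and 1285 in B, the floor or 1.01 in C1 and C2, 3.43 and 8.88 in C3, and the floor and 15.6 in A.

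Msr1, a scavenger receptor, had 4365 and 4212 normalized reads in B, 1.01 and 1.34 in C1, and 18.5 and 95.5 in A. Csf2rb, the shared chain of the receptors for GM-CSF and related cytokines, kept a higher level in culture. It had 2472 and 2340 in B, fewer in C1 at 130 and 84.2, then 13.3 and 15.0 in C2, the floor in C3, and 23.5 and 199 in A, and it fell in C2 relative to C1 (-2.89 ± 0.85, adjusted p = 0.0372), a call lost when any 1 of these 4 libraries was left out (adjusted p = 0.0955 to 0.154). In C2 relative to C1, Lyn, a Src-family kinase, fell by 2.44 ± 0.16 on the log2 scale (adjusted p = 0.000166) and rose in C3 relative to C2 by 3.37 ± 0.16 (adjusted p = 3.4e-05). The target list shares 9 genes with the list of macrophage markers, of which 20 of 20 rose in B relative to A and 20 of 20 fell in C1 relative to B.

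Other transcription factors of myeloid cells moved less uniformly. Of 17 tested of 20, 10 rose and 1 fell in B relative to A, where 14.5% of all tested genes rose and 12.4% fell, and 0 rose and 11 fell in C1 relative to B, where 12.6% rose and 21.1% fell. These background shares hold for the lists that follow as well. The median difference was 1.52 for B and A and -1.31 for C1 and B. Maf, a basic leucine zipper factor of macrophages and other cells, was higher in B than in A by 5.50 ± 0.37 (adjusted p = 0.000113). Irf5, an activator of inflammatory genes, was higher by 4.37 ± 0.53 (adjusted p = 0.00103). Batf3, a partner of IRF8 in dendritic cells, had 41.2 and 34.3 normalized reads in B, at most 1.04 in any C library, and 1.68 and 7.66 in A.

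In C1 relative to B, Cebpa, a factor of granulocyte and monocyte progenitors, fell by 5.57 ± 0.33 (adjusted p = 3.389e-05). Tfec, a helix-loop-helix factor of macrophages, had 267 and 263 normalized reads in B, at most 2.02 in any C library, and 28.6 and 44.1 in A. Maf was higher in C1 than in A (2.98 ± 0.37, adjusted p = 0.00119), unlike Spi1 and Irf8, whose C1 values lay below both A libraries. For Spi1 and Irf8, A replicate 1 lay at or under its limit of 3 reads.

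Relatives of the members did not all follow them. Of 13 tested of 21 paralogues, 4 rose and 3 fell in B relative to A, and 1 rose and 5 fell in C1 relative to B, against the shares of 14.5% and 12.4%, and of 12.6% and 21.1%, among all tested genes. The median differences were -0.06 and -0.65. Without A replicate 1 the counts for B and A were 3 higher and 1 lower. Runx3, unlike Runx1, had 188 and 161 normalized reads in B, at most 1.04 in any C library, and the floor and 5.75 in A. It rose in B relative to A (6.18 ± 0.69, adjusted p = 0.000724) and fell in C1 relative to B (limma adjusted p = 0.000211). Runx2, best known from bone, was named after its values were seen, with log2 values about its median of -0.58 and -1.07 in B, against 0.27 and 0.58 in A.

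Lyl1, the closest relative of Tal1, had 227 and 250 normalized reads in B, 2.69 and the floor in C1, 5.88 and the floor in C2, 2.36 and the floor in C3, and 5.04 and 24.4 in A. It rose in B relative to A by 4.42 ± 1.06 (adjusted p = 0.0150), and the call was lost without A replicate 1 (3.29, adjusted p = 0.0626), B replicate 1 (adjusted p = 0.0662) or B replicate 2 (adjusted p = 0.0728). Ets2, an ETS relative of Fli1, rose in B relative to A by 1.84 ± 0.22 (adjusted p = 0.000904). Ikzf4, a relative of Ikzf1, rose in C1 relative to B by 3.34 ± 0.67 (adjusted p = 0.00547) and in C3 relative to C2 it fell by 2.48 ± 0.67 on the log2 scale (adjusted p = 0.0214), which was not called without C2 replicate 1, C2 replicate 2 or C3 replicate 2 (adjusted p = 0.0692 to 0.122). Mybl2 and Mybl1, relatives of Myb, had lower values in both C1 libraries than in either B library. Their values in C2 and C3 lay above those of C1, though Mybl1 was not called in C2 relative to C1. Mybl2 had log2 values about its median of -1.84 and -2.13 in C1, against -1.06 and -0.91 in B, and Mybl1 had -0.68 and -0.34 in C1, against 0.27 and -0.002 in B. Mybl2 then rose by 2.18 ± 0.28 in C2 relative to C1 (adjusted p = 0.00173) and by 3.64 ± 0.28 in C3 relative to C1 (adjusted p = 8.675e-05), and Mybl1 rose by 2.71 ± 0.29 in C3 relative to C1 (adjusted p = 0.000330).

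Proteins that bind or work with the members moved little between B and A and between C1 and B. Of 19 tested of 20, 0 rose and 2 fell in B relative to A (17 did not pass), and 0 rose and 2 fell in C1 relative to B, where 26.9% and 33.7% of all tested genes changed in either direction. The median differences were -0.25 and 0.04. In C1 relative to A, 0 rose and 5 fell, where 10.1% of all tested genes rose and 16.6% fell. For C3 relative to C2, 0 rose and 3 fell, where 11.6% rose and 16.2% fell. In B relative to A, Tcf3, the E-protein partner of Tal1, fell by 1.49 ± 0.25 on the log2 scale (adjusted p = 0.00346), and it rose in C2 relative to C1 by 1.47 ± 0.25 (adjusted p = 0.00490). Lmo4, a LIM-only protein that binds Ldb1 as Lmo2 does, differed by -1.15 ± 0.22 between B and A (adjusted p = 0.00603, and -0.97, under the minimum difference, without A replicate 1) and by -1.67 ± 0.22 between C1 and B (adjusted p = 0.000887), and it rose in C2 relative to C1 by 2.93 ± 0.22 (adjusted p = 0.000246). In C1 relative to B, Jun, which PU.1 is known to bind, fell by 2.59 ± 0.29 on the log2 scale (adjusted p = 0.000482). Cbfb, the partner of Runx1, was named after its values were seen and lay between -0.19 and 0.23 about its median in the 10 libraries.

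**Figure D4:**
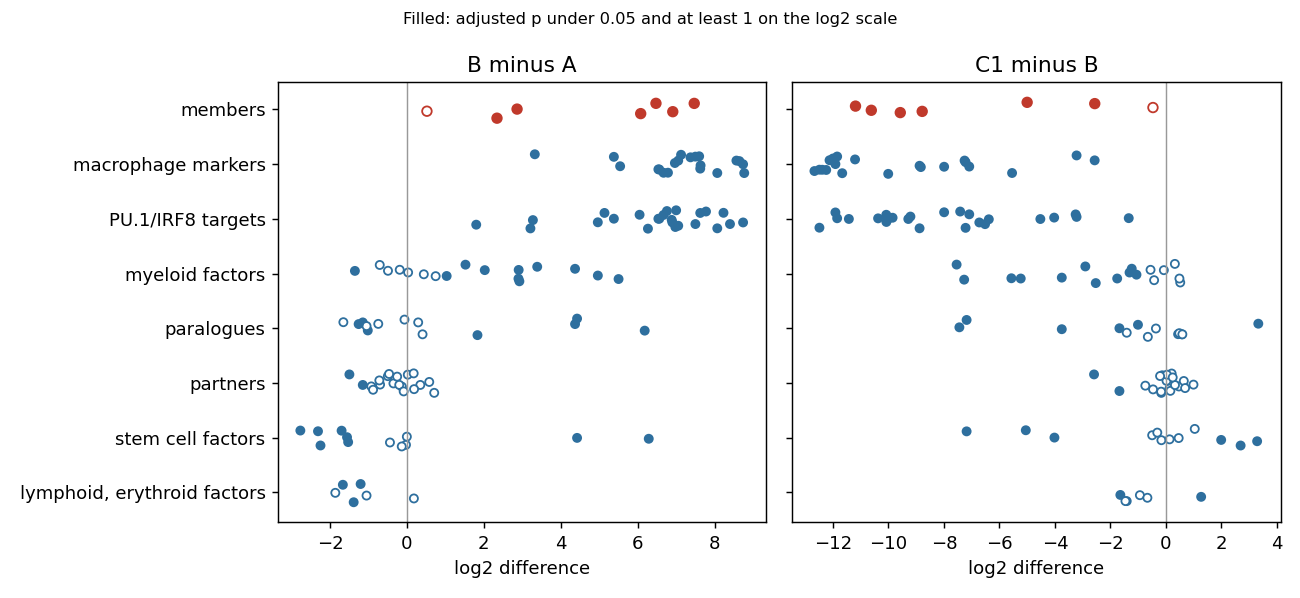
Fitted log2 differences of B minus A and of C1 minus B, with 1 point per tested gene, for the members and 7 lists of related genes. Filled points passed the adjusted p of 0.05 and the minimum difference of 1, and values of genes under the limit of 3 reads depend on the floor. The members, the macrophage markers and the PU.1 and IRF8 targets lie mostly to the right of 0 in the left panel and to the left of 0 in the right panel, and the partners gather around 0, with medians of -0.25 and 0.04.

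Factors of blood stem cells split. Of 12 tested of 16, 2 rose and 6 fell in B relative to A, where 14.5% and 12.4% of all tested genes did, and 3 rose and 3 fell in C1 relative to B, against 12.6% and 21.1% of all tested genes. The median differences were -0.98 and -0.01. Hhex, a homeobox factor of blood and vessel progenitors, rose in B relative to A by 6.29 ± 0.51 (adjusted p = 0.000222) and in C1 relative to B it fell by 5.05 ± 0.51 on the log2 scale (adjusted p = 0.000310). Mecom and Mycn, regulators of stem cell maintenance and of cell division, fell in B relative to A (-2.31 ± 0.29, adjusted p = 0.00109, and -2.77 ± 0.65, adjusted p = 0.0141). Mycn had log2 values about its median of -2.58 and -1.92 in B, against 1.55 and -0.52 in A, and its difference was -1.73 without A replicate 1 and -3.81 without A replicate 2. The call of Mycn was lost without B replicate 1 (adjusted p = 0.0843). Gata2, a partner of Tal1 and Lmo2 in progenitors and mast cells, had log2 values about its median of -2.29 and -2.40 for the B libraries, 0.51 and 0.19 for C1, 0.74 and 0.41 for C2, -0.08 and -0.41 for C3, and -1.66 and 0.08 for A. It rose in C1 relative to B (2.70 ± 0.50, adjusted p = 0.00414), where Tal1 and Lmo2 fell. Between B and A the difference was -1.56 ± 0.50 (adjusted p = 0.0461), with -2.43 without A replicate 1 and -0.69, no longer called (adjusted p = 0.0614), without A replicate 2, and the call was also lost without B replicate 1 (adjusted p = 0.136) or B replicate 2 (adjusted p = 0.159).

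Factors of lymphoid and erythroid cells were sparse. Of 16, 6 were tested, and 0 rose and 3 fell in B relative to A, where 14.5% and 12.4% of all tested genes did, among them Gata3 (-1.38 ± 0.40, adjusted p = 0.0308) and Ebf1 (-1.67 ± 0.39, adjusted p = 0.0143). Both calls were lost without A replicate 1 (adjusted p = 0.123 for Gata3, and -1.23, adjusted p = 0.0568 for Ebf1) and without B replicate 2 (adjusted p = 0.152 and 0.0829). In C1 relative to B, 1 rose and 1 fell, namely Zfpm1 (1.28 ± 0.37, adjusted p = 0.0244) and Gata3 (-1.64 ± 0.40, adjusted p = 0.0126), against 12.6% and 21.1% of all tested genes. Zfpm1 lost this call when any 1 of the 4 libraries was left out (adjusted p = 0.0699 to 0.105), and Gata3 lost it without B replicate 1 (adjusted p = 0.0653) or C1 replicate 1 (adjusted p = 0.0680). The median differences were -1.29 for B and A and -1.17 for C1 and B. Gata1, Pax5 and Ikzf3, which mark the erythroid, B-cell and lymphoid lines, were listed at 0 in every library, as were Flt3 of early progenitors and the T-cell genes Cd3d and Cd3e, all named after their values were seen.

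The genes whose profiles were most like that of a member were ranked by the root mean square log2 difference over the 10 libraries, each profile about its own mean. Distances tend to be small for a profile at the floor in most libraries, as that of Ikzf1, or of narrow range, as that of Runx1. Ikzf1 had the closest neighbours, St8sia4 at 0.11, Was at 0.11 and Clec5a at 0.12. Spi1 lay nearest to Cadm1 (0.34) and Tlr13 (0.39), Irf8 to Evi2b (0.30), Cd72 (0.51) and Prkcb (0.53), and Lmo2 to Arhgap30 (0.36), Msr1 (0.40) and Ptprc (0.40). Tal1 was nearest to Batf3 (0.23), Traf1 (0.34) and Chd7 (0.37). For Fli1 the nearest were Hist2h2ab (0.28), Sec11c (0.43) and Gm2382 (0.44), and for Runx1 Mgea5 (0.15), Cecr5 (0.18) and Rps15a-ps4 (0.20). Among the members themselves Irf8 and Lmo2 were the closest pair, at 0.67, and Runx1 differed from the other 6 tested factors by 1.58 to 4.53.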

How the data were processed

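Total RNA of 10 samples was made into libraries with a kit that does not mark strand, per the labels' protocols. TopHat, DESeq and mm10 are named without version or role, per the submitters' processing notes, and no source used here gives the counting steps. The values in the deposited table are log2 values per gene. The median over the 10 libraries was 0 within 1e-05 for all 17821 genes with values, and 18334 genes were 0 throughout. That values are log2 of normalized reads, floored at 1, was inferred from them, and between 33.0% and 75.5% of low values, up to 20 reads, lay within 0.01 of whole reads, so no count test was run and total depth is unknown. The 17 genes with a cell turned into a date were left out.

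Of the genes with values, 4762 had a known level. Genes with a known level were kept where 2 libraries reached 10 normalized reads, which removed 3567 genes, while the 13059 of unknown level could not be filtered. A gene of known level that is high only in B thus passed through B, in the lists as among the factors. All 10 libraries entered a limma fit (version 3.58.1, in R 4.3.3) with a mean per type, 5 residual and 1.93 prior degrees of freedom, two-sided, with Benjamini-Hochberg adjustment per comparison over 14254 genes. No pseudocount was added, because the values were already logarithms. The members and gene lists were chosen with earlier results of these data known. Named genes are the members, from each list the 4 called genes with the largest difference in B against A and in C1 against B and the 2 largest elsewhere, and the 3 genes most like each member, of which some are not reported here. Coordinates are from GENCODE M21 on GRCm38 and promoters from RefSeq on GRCm38.p6. Correlations of same-numbered libraries' deviations lay between -0.06 and 0.09 over 10 pairs of types, so the numbers were not taken to pair samples. Alternatives were other normalizations, filters, thresholds, sample sets and variance models, a replicate block, and leaving out each library.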

Additional observations from a re-analysis of the deposited data

How the results depend on the processing

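The 6 factors that fell in C1 relative to B did so under all alternatives. For B and A the count of 6 became 2 with quantile normalization and 2 with only the 4 libraries of both types. For C1 and A the count of 2 became 0 with those 4 libraries and 1 without the filter, with robust empirical Bayes, with the replicate block or with 1 added to known levels, and lay between 1 and 5 when a library was left out. For C2 and C1 it lay between 0 and 2 when a library was left out (0 without C1 replicate 1, 1 without C2 replicate 1 or C2 replicate 2). For C3 and C2 it was 1 with quantile normalization (Fli1), 1 without the filter (Myb) and 0 to 1 when a library was left out. The replicate block, which the data do not support, changed 1 call among the factors, Irf8 for C1 and A (adjusted p = 0.0604), and moved no count of all genes by over 1.5 times. Directions turned only in differences that were not called. When a library was left out they lay, for C1 and A, between -0.29 and 0.41 for Runx1 and between -0.55 and 0.11 for Fli1. For C2 and C1 they lay between -0.90 and 0.50 for Spi1, -1.07 and 0.52 for Irf8 and -0.37 and 0.68 for Lmo2. For C3 and C2 the range was -0.70 to 0.33 for Spi1 and -0.93 to 0.12 for Lmo2, and for C3 and C1 it was -1.08 to 0.32 for Spi1 and -0.61 to 0.12 for Lmo2. Quantile normalization gave -0.029 for Lmo2 in C2 and C1, and 0.36 for Spi1 and 0.18 for Irf8 in C3 and C2. With no minimum difference all called genes numbered 7337 instead of 4804 for C1 and B, 6202 instead of 3798 for C1 and A, 5025 instead of 2906 for C2 and C1, 6359 instead of 3972 for C3 and C2 and 7484 instead of 4966 for C3 and C1. With only the 4 libraries compared they numbered 2538 instead of 3835 for B and A and 2375 instead of 3798 for C1 and A, where fewer libraries estimate the spread. The cause of the other shifts was not tested. With 2 libraries per type the spread is poorly known, and the inferred scale and the floor limit all values. Levels under 3 reads cannot be told from 0.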

Other observations

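Markers of other blood lines moved in different ways. Csf3r, the receptor of granulocyte colony-stimulating factor, had 110 and 101 normalized reads in B, the floor in C1, and the floor and 11.5 in A, and Cd4, a surface protein of T helper cells and some macrophages, had 43.6 and 32.6 in B, 2.37 and 1.96 in C1, and the floor and 1.92 in A, so both were highest in B, as Spi1 and Irf8 were. Prtn3, a protease of immature granulocytes, was at the floor and 1.81 normalized reads in the B libraries, and had 26.2 and 42.7 in C1 but 50.2 and 38.9 in C2. The C3 libraries had 1.30 and the floor, and the A libraries 25.2 and 26.5. It was higher in C1 than in B (4.64 ± 0.35, limma adjusted p = 9.159e-05) while Spi1 and Irf8 were lower. Hdc, the histamine-forming enzyme of mast cells and basophils, had 18.5 and 205 normalized reads in A and no more than 1.19 in any other library. The mast-cell proteases Mcpt4, Cma1 and Cpa3 stayed at or under 3.62 normalized reads in all 10 libraries. Pf4, a platelet chemokine that macrophages also make, had 4037 and 4194 normalized reads in B, 1 to 5.18 in the C libraries, and 20.2 and 76.6 in A.

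Kdr, a receptor of endothelial cells, had 214 and 198 normalized reads in B, was at the floor in C1, and had 6.12 and 5.18 in C2, 30.1 and 49.0 in C3, and the floor and 3.83 in A. Pecam1 and Cdh5, which endothelial cells share, fell with it in C1 relative to B (-5.06 ± 0.34, limma adjusted p = 5.846e-05, and -5.27 ± 0.28, adjusted p = 2.348e-05). Between B and A the libraries lay closer, since Pecam1 had 34.4 and 32.6 normalized reads in B, against 16.8 and 38.3 in A, and Cdh5 had 43.4 and 34.4 in B, against 26.8 and 49.8 in A.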
